A study of Mus musculus with 4 samples.

Results

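The transcription factor NRF2 and 9 of its classical target genes were followed in RNA from cells labelled as lung type 2 innate lymphoid cells (ILC2s) of WT and Hps1-/- mice given PBS or bleomycin. The 10 genes were chosen by name from the table of read counts. They are Nfe2l2, which encodes NRF2, the glutathione genes Slc7a11, Gclc, Gclm and Gsr, the thioredoxin genes Txnrd1, Srxn1 and Prdx1, and G6pdx and Nqo1. All 10 were present among the 49315 genes of the table, and all 10 passed the filter of at least 1 CPM (a read count scaled to one common library size) in at least 1 library, as did 15006 genes in total. Bleomycin is a DNA-damaging drug that injures the lung and induces fibrosis in mice. Hermansky-Pudlak syndrome type 1, caused by loss of HPS1, leads to pulmonary fibrosis in patients, and the comparison of genotypes asks how ILC2s differ in its mouse model.

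Each group was a single library, and there were 4 libraries in all. PBS-WT came from WT mice given PBS, and PBS-HPS1 from Hps1-/- mice given PBS. BLEO-WT came from WT mice given bleomycin, and BLEO-HPS1 from Hps1-/- mice given bleomycin. The WT mice were C57BL/6, and the mutants were congenic on that background. For all 4 libraries, cells were enriched from lung suspensions, sorted as Lineage- Thy1.2+ ICOS+ T1/ST2+ and kept in culture with IL-2 before RNA extraction. The route of bleomycin, the age of the mice and the number of mice behind each of these libraries are not given in the sources used here. The sorted cells numbered 22405 for PBS-WT and 84166 for BLEO-WT, and 38873 for PBS-HPS1 and 128647 for BLEO-HPS1. With 1 library per group the spread between mice is unknown, no test between conditions is possible and no p-value is given.

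NRF2 is held low in resting cells by KEAP1, which hands it to a CUL3 ubiquitin ligase for degradation. Oxidants and electrophiles modify KEAP1, NRF2 then accumulates, pairs with a small MAF protein and binds antioxidant response elements in DNA, where BACH1 competes with it. Much of NRF2 control therefore lies at the level of the protein, which RNA does not measure. Its targets supply cystine and glutathione, reduce thioredoxin and peroxiredoxins, regenerate NADPH and detoxify quinones.

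To show the DNA that lies just upstream of these genes, promoter windows were read for the members that differed by at least 2-fold in some comparison and had an entry in the RefSeq promoter table (GRCm38.p6), namely Srxn1, Slc7a11 and Nqo1. Windows are the 250 bases before the annotated start, written 5′ to 3′ on the strand of the gene. Both strands were searched for TGACNNNGC, the core of the antioxidant response element, and for the looser TGANNNNGC, which includes every match of the former. Capitals mark the matches, and a match on the opposite strand reads as its reverse complement. The Srxn1 window lay at chr2:152105274-152105523 on the plus strand, the Slc7a11 window at chr3:50443614-50443863 on the minus strand and the Nqo1 window at chr8:107403206-107403455 on the minus strand.
Srxn1: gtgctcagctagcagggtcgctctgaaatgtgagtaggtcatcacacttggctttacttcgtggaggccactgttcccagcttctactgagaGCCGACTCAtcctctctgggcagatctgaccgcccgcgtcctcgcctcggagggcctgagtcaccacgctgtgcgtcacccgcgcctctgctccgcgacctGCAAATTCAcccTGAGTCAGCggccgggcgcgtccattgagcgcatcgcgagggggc
Slc7a11: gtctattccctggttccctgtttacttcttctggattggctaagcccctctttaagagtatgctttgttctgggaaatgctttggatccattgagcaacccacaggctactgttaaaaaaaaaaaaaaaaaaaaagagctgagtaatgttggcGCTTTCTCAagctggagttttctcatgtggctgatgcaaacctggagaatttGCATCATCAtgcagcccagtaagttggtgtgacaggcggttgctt
Nqo1: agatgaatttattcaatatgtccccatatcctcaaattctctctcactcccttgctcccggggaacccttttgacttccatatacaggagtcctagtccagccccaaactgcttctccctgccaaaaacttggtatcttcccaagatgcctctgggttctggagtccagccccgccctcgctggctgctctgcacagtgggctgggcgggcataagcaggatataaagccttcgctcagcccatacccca

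The Srxn1 window held 3 matches to the looser motif, at 158, 57 and 45 bases upstream of the start, and the Slc7a11 window held 2, at 97 and 45 bases. None of these was a match to TGACNNNGC. Neither motif occurred in the Nqo1 window, which says only that these letters are not in this stretch. Of the 10 genes, 8 had a window. TGACNNNGC was found upstream of 5 of the 8 (Nfe2l2, Gclm, Prdx1, Txnrd1 and G6pdx) against 10.2% of the 32851 windows of the table, and TGANNNNGC upstream of 7 of the 8 against 35.2%. Txnrd1 had 3 windows and every other member 1. A member counted if any of its windows matched, whereas the percentages are of single windows. The members were chosen as NRF2 and its classical targets, so these shares cannot test for an excess of the motif. A match is a description of the sequence and not a bound site.

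Total reads ranged from 72513619 to 87638154 per library. A count of 3 reads, the limit that a count of 0 allows, corresponded to between 0.0336 and 0.0456 CPM. Levels are given as CPM scaled by TMM factors, and differences as log2 ratios of 2 libraries with an exact 95% interval of their read counts. The intervals cover counting error only and not the spread between mice. Whether PCR copies of a molecule were counted as separate reads is not given in the sources used here, and if they were, the intervals are too narrow. Hps1 itself was measured at 38.2 CPM in PBS-WT and 45.5 in BLEO-WT, and 18.5 in PBS-HPS1 and 20.5 in BLEO-HPS1. It was thus lower in both libraries labelled HPS1, with log2 ratios of -1.05 under PBS and -1.15 after bleomycin, and it was not absent from them.

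The labelled cell type was checked against its markers. The T1/ST2 gene Il1rl1 stood at 5.92, 5.08, 6.42 and 3.31 CPM per kilobase of exon in PBS-WT, BLEO-WT, PBS-HPS1 and BLEO-HPS1. The macrophage lysozyme gene Lyz2 stood at 7146, 9392, 5127 and 9015 CPM per kilobase in the same libraries. RNA of macrophage genes was thus abundant in all 4 libraries of a Lineage- sort. All 10 ILC2 and sort genes and all 15 macrophage genes had reads in every library, as had every other marker listed. Summed over their lists, macrophage genes reached 16748, 23010, 13588 and 21986 CPM, and ILC2 and sort genes 1167, 1010, 1154 and 1190 CPM. The genes of a list did not move together. In BLEO-HPS1 against PBS-HPS1, 5 ILC2 and sort genes had ratios above 0 and 5 below, and 9 macrophage genes above and 6 below. Il1rl1 and Lyz2 thus do not stand for the direction of their lists. The 13 fibroblast genes summed to 724, 1381, 1077 and 5148 CPM, highest in BLEO-HPS1. The sums of the 11 neutrophil genes were 1728, 879, 541 and 465 CPM, and those of the 16 epithelial genes were 1457, 877, 1220 and 651 CPM. Across libraries, the 10 endothelial genes summed to between 950 and 1328 CPM, the 6 B cell genes to between 320 and 1091, the 7 T cell genes to between 631 and 1188, the 6 NK and ILC1 genes to between 72.2 and 273 and the 5 red cell genes to between 220 and 740. The part of these cells in the levels described here was not tested. In bulk RNA, fewer cells of a type and less RNA per cell cannot be told apart.

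Transcript base composition also moved with the comparisons. Over 11134 genes with a mean log2 CPM of at least 2, GC content and log2 ratio had a Spearman rho of -0.08 between the genotypes under PBS and 0.63 between the genotypes after bleomycin, and of 0.50 for the bleomycin response of WT mice and 0.62 for that of Hps1-/- mice. Each rho is across genes of the same libraries, and genes are not independent replicates. The rho of exon length with the ratio was 0.41, -0.47, -0.25 and -0.50 in the same order. The members spanned GC contents of 42.1% to 55.5%, around a median of 50.2% for all genes compared, and Slc7a11 had both the lowest GC content and, at 13922 exon bases, the longest exon length among them. A second value, corrected for GC content and length by a loess curve through all genes, is therefore given beside many of the ratios, in particular where it changes the sign or the call of a ratio described. The correction takes out any difference that runs with GC content or length, whatever its source.

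**Figure D1:**
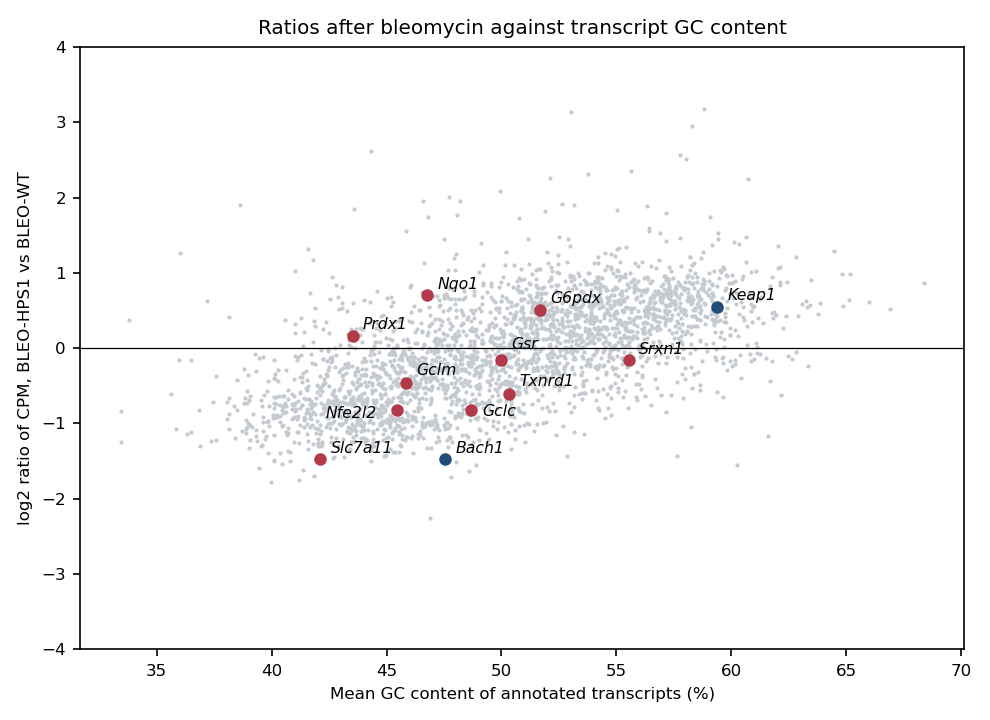
Each grey point is a gene (every 4th of the 11134 genes), placed by the mean GC content of its annotated transcripts in percent (x axis) and its log2 ratio of CPM between BLEO-HPS1 and BLEO-WT (y axis). Red points are the 10 NRF2 genes and blue points Keap1 and Bach1; the cloud rises with GC content (Spearman rho 0.63), Slc7a11 lies at its low-GC end at -1.48, and Bach1 lies equally low at a higher GC content.

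As counted, the 10 genes covered a wide range of levels. Per kilobase of exon, Gsr was the most abundant in the PBS libraries (131 CPM per kilobase in PBS-WT and 96.8 in PBS-HPS1) and Prdx1 in the bleomycin libraries (101 in BLEO-HPS1 and 89.9 in BLEO-WT). Least abundant were Slc7a11, at 0.343 to 0.958 CPM per kilobase, and Nqo1, at 0.807 to 2.18. The highest library exceeded the lowest by 2.79-fold for Slc7a11, 2.71-fold for Nqo1, 2.43-fold for Gclc and 2.03-fold for Srxn1, and by 1.38-fold to 1.98-fold for the other 6 genes. BLEO-HPS1 was the lowest library for Nfe2l2, Slc7a11, Gclc, Gclm, Gsr and Txnrd1, and the highest for Prdx1, G6pdx and Nqo1.

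**Figure D2:**
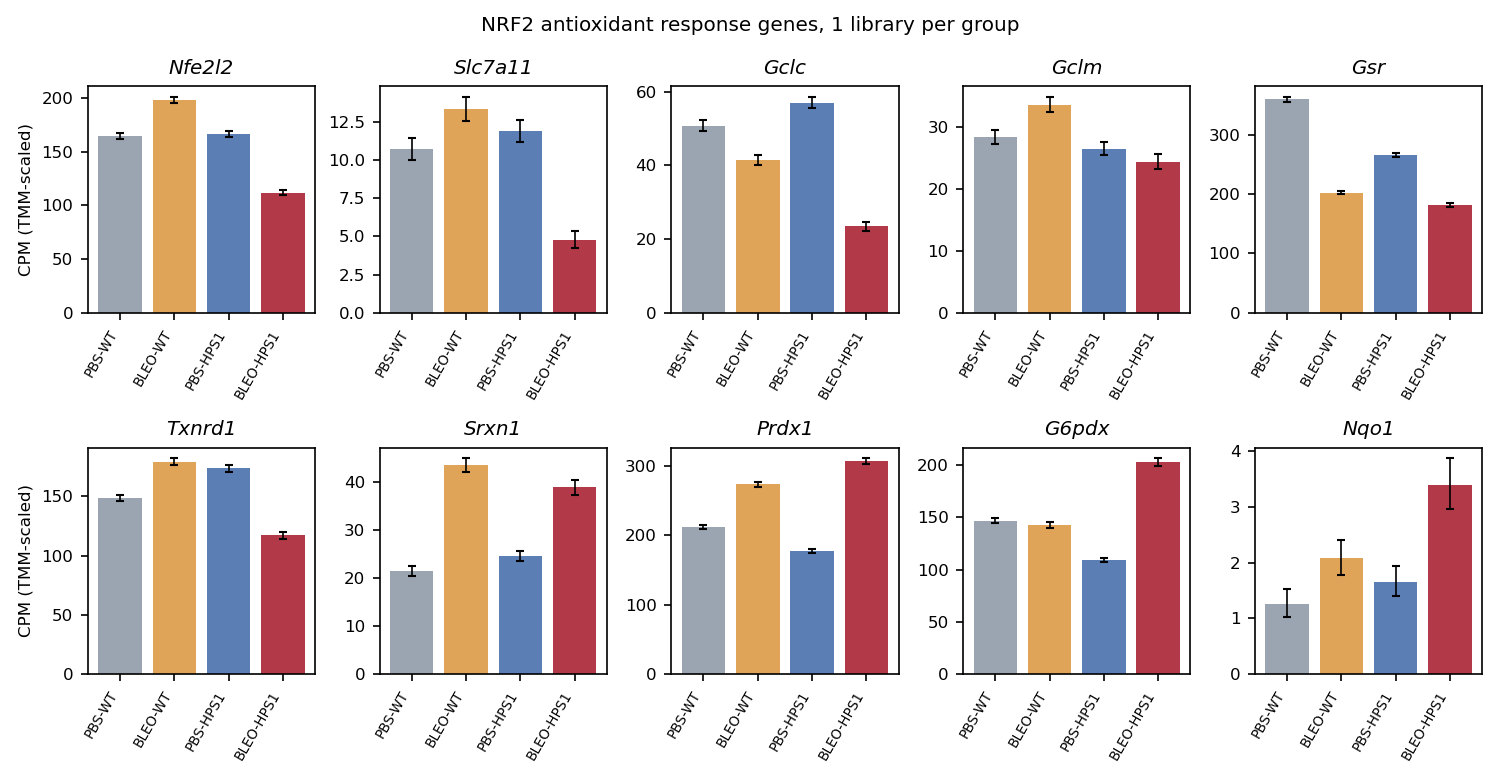
Bars give the TMM-scaled CPM (y axis, from 0, with its own scale for each gene) of the 10 NRF2 genes in the 4 libraries (x axis), and error bars the exact 95% counting interval. Slc7a11 and Gclc are lowest in BLEO-HPS1 (4.78 and 23.5 CPM), whereas Prdx1, G6pdx and Nqo1 are highest there (307, 203 and 3.39 CPM).

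Nfe2l2 encodes the factor itself. It was measured at 165 CPM in PBS-WT and 198 in BLEO-WT, and 167 in PBS-HPS1 and 112 in BLEO-HPS1. As counted, the PBS libraries did not differ beyond counting error (log2 ratio 0.02, interval -0.02 to 0.05), BLEO-WT lay above them and BLEO-HPS1 below them. After bleomycin, the Hps1-/- library was thus lower by 1.77-fold (log2 ratio -0.83, interval -0.87 to -0.79, and -0.49 once corrected for GC content and length). Against PBS-HPS1, the log2 ratio of BLEO-HPS1 was -0.58, but -0.01 once corrected.

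The supply of cystine and the synthesis of glutathione are represented by 3 members. Slc7a11 encodes the transport subunit of the cystine-glutamate exchanger (xCT), and its gene lies on chromosome 3 at 49892526-50443614 (GRCm38, minus strand). It had 837 reads in PBS-WT and 1112 in BLEO-WT, and 1063 in PBS-HPS1 and 314 in BLEO-HPS1, or 10.7, 13.3, 11.9 and 4.78 CPM. As counted, BLEO-HPS1 stood apart at the low end, while the other 3 libraries lay within 1.25-fold of each other. Slc7a11 was 2.78-fold lower in BLEO-HPS1 than in BLEO-WT (log2 ratio -1.48, interval -1.67 to -1.30) and 2.48-fold lower than in PBS-HPS1 (log2 ratio -1.31, interval -1.50 to -1.13). Corrected for GC content and length, the former was -0.73, under 2-fold. The latter turned to 0.36, so that its direction rests on the processing. The ratio of BLEO-WT to PBS-WT moved from 0.32 to 1.01, so BLEO-HPS1 did not stand apart at the low end once corrected.

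Gclc encodes the catalytic subunit of glutamate-cysteine ligase, the rate-limiting enzyme of glutathione synthesis (chromosome 9, 77754535-77794485). It stood at 50.8 CPM in PBS-WT and 41.4 in BLEO-WT, and 57.1 in PBS-HPS1 and 23.5 in BLEO-HPS1. Both bleomycin libraries lay below both PBS libraries, and BLEO-HPS1 was the lowest. Gclc was 2.43-fold lower in BLEO-HPS1 than in PBS-HPS1 (log2 ratio -1.28, interval -1.36 to -1.20), and -1.18 once corrected. In BLEO-WT it was 1.23-fold lower than in PBS-WT (log2 ratio -0.30). Gclm, the modifier subunit that lowers feedback inhibition of the ligase, was the steadiest member. It was measured at 28.3, 33.6, 26.5 and 24.3 CPM in PBS-WT, BLEO-WT, PBS-HPS1 and BLEO-HPS1, and its log2 ratio in BLEO-HPS1 against PBS-HPS1 was -0.12, but 0.63 once corrected. Of its 6291 exon bases, 296 are shared with the gene Gm17494 on the opposite strand.

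The catalytic and modifier subunits of the ligase did not move together. Per read of Gclm there were 1.79 reads of Gclc in PBS-WT (interval 1.70 to 1.89) and 1.23 in BLEO-WT (1.17 to 1.30), and 2.16 in PBS-HPS1 (2.05 to 2.26) and 0.964 in BLEO-HPS1 (0.899 to 1.03). Such a ratio within a library does not depend on how libraries are scaled. It was lower in both bleomycin libraries than in both PBS libraries, and lowest in BLEO-HPS1.

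Gsr encodes glutathione reductase, which returns oxidized glutathione to its reduced form with NADPH. It was measured at 360 CPM in PBS-WT and 203 in BLEO-WT, and 267 in PBS-HPS1 and 182 in BLEO-HPS1. The bleomycin libraries were both below the PBS libraries, by 1.78-fold in WT (log2 ratio -0.83, interval -0.86 to -0.80) and by 1.47-fold in Hps1-/- (log2 ratio -0.55, interval -0.58 to -0.52). It was also lower in PBS-HPS1 than in PBS-WT (log2 ratio -0.43).

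The thioredoxin arm comprised 3 members. Txnrd1, the cytosolic thioredoxin reductase, stood at 148 CPM in PBS-WT and 179 in BLEO-WT, and 174 in PBS-HPS1 and 117 in BLEO-HPS1. Its highest and lowest libraries were those given bleomycin, which differed by 1.53-fold (log2 ratio -0.61, interval -0.65 to -0.58).

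Srxn1, sulfiredoxin, reactivates peroxiredoxins that have been over-oxidized, and lies on chromosome 2 at 152105516-152111376. Its levels were 21.4 CPM in PBS-WT and 43.4 in BLEO-WT, and 24.6 in PBS-HPS1 and 38.8 in BLEO-HPS1. Both bleomycin libraries lay above both PBS libraries. Srxn1 was 2.03-fold higher in BLEO-WT than in PBS-WT (log2 ratio 1.02, interval 0.94 to 1.11), and 0.84 once corrected, which is under 2-fold. In Hps1-/- mice the corresponding log2 ratio was 0.66 (interval 0.57 to 0.74), but -0.04 once corrected, so that the direction in that genotype rests on the processing.

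Prdx1, a peroxiredoxin that reduces hydrogen peroxide with electrons from thioredoxin, stood at 212, 274, 178 and 307 CPM in PBS-WT, BLEO-WT, PBS-HPS1 and BLEO-HPS1. Like Srxn1, it was higher in both bleomycin libraries, by 1.29-fold in WT (log2 ratio 0.37) and 1.72-fold in Hps1-/- (log2 ratio 0.78). The latter became 1.57 once corrected. Between the bleomycin libraries its log2 ratio of 0.16 (interval 0.14 to 0.19) came to -1.18e-05 when libraries were scaled by total reads alone.

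G6pdx and Nqo1 handle NADPH and quinones. G6pdx, glucose-6-phosphate dehydrogenase, makes NADPH at the entry of the pentose phosphate pathway. It was measured at 147 CPM in PBS-WT and 143 in BLEO-WT, and 109 in PBS-HPS1 and 203 in BLEO-HPS1. The WT libraries were nearly level (log2 ratio -0.04, interval -0.08 to -0.01, or 0.04 when no filter on low counts was used), whereas in Hps1-/- mice the bleomycin library was 1.86-fold higher (log2 ratio 0.90, interval 0.86 to 0.93). G6pdx shares 418 of its 3080 exon bases with Ikbkg on the opposite strand, and whether the counting used strand is not given in the sources used here.

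Nqo1, the quinone reductase long used as a readout of NRF2, was the least abundant member by read count (chromosome 8, 107388225-107403206). It had 98 reads in PBS-WT and 173 in BLEO-WT, and 148 in PBS-HPS1 and 223 in BLEO-HPS1, or 1.25, 2.07, 1.66 and 3.39 CPM. BLEO-HPS1 exceeded every other library, while BLEO-WT and PBS-HPS1 did not differ beyond counting error (interval -0.001 to 0.65 in log2). Nqo1 was 2.03-fold higher in BLEO-HPS1 than in PBS-HPS1 (log2 ratio 1.02, interval 0.73 to 1.34, and 1.14 once corrected), and 1.63-fold higher than in BLEO-WT (log2 ratio 0.70, interval 0.42 to 1.004). It was the only member with a ratio above 0 in all 4 comparisons under every scaling, filter and correction tried.

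**Figure D3:**
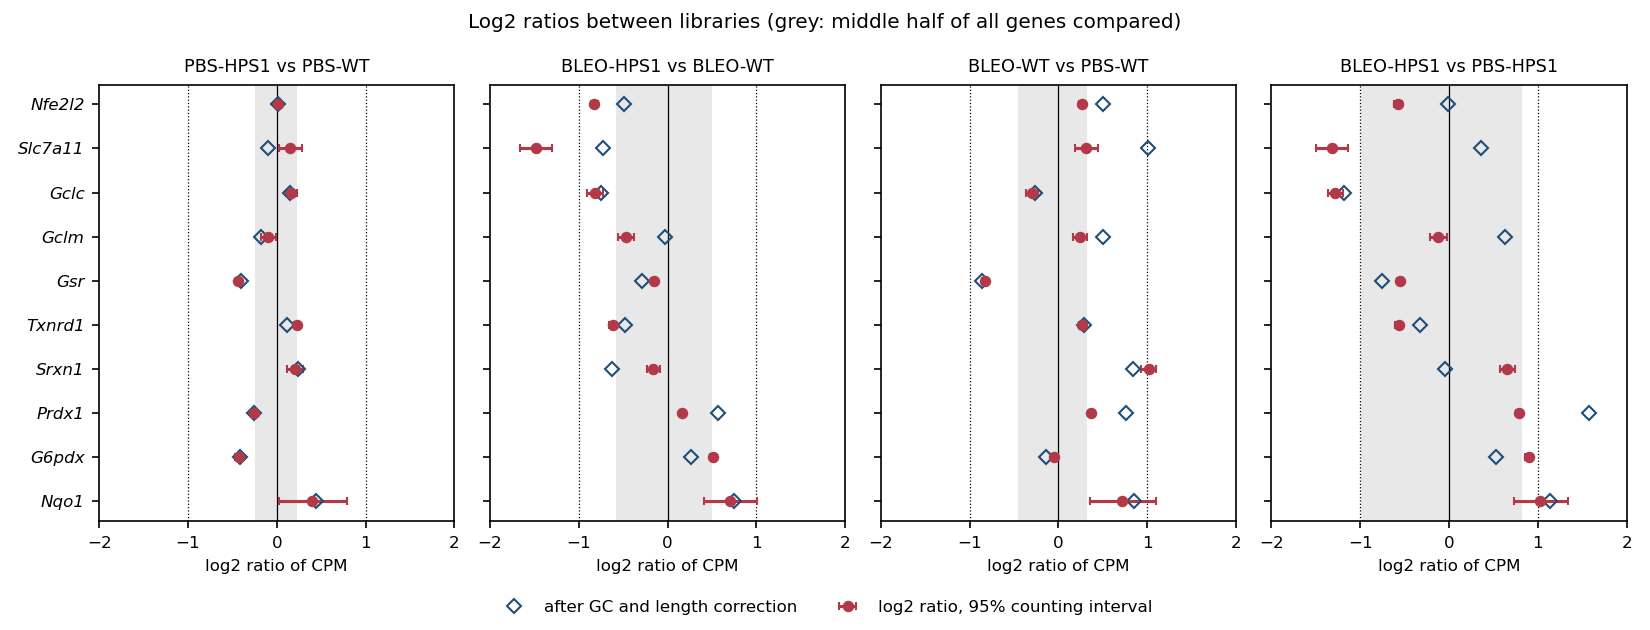
Log2 ratios of CPM (x axis) for the 10 NRF2 genes (y axis) in the 4 comparisons, as red points with exact 95% counting intervals and, as blue diamonds, after correction for GC content and length. Grey bands span the interquartile range of all genes compared and dotted lines mark 2-fold; Slc7a11 is at -1.48 and -1.31 in the comparisons of BLEO-HPS1, and its diamond in the last panel is at 0.36, on the other side of 0.

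Without bleomycin, the genotypes were close. None of the 10 genes differed by 2-fold between PBS-HPS1 and PBS-WT, where 3.58% of the genes compared were at least 2-fold higher (537 genes) and 2.38% at least 2-fold lower (357 genes), or 6769 and 1941 genes with no filter on low counts. The members ranged from -0.43 for Gsr and G6pdx to 0.40 for Nqo1. Their median log2 ratio was 0.08, against -0.03 for all genes compared, and it lay at -0.04 once corrected and at -0.07 when no filter was used.

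After bleomycin, 1 member differed by at least 2-fold between genotypes. Slc7a11 was lower in BLEO-HPS1 than in BLEO-WT, where 9.48% of genes compared were at least 2-fold lower (1422 genes) and 7.08% at least 2-fold higher (1062 genes), or 2225 and 739 genes with scaling by total reads. No member was at least 2-fold higher. Of the 10 ratios, 7 were below 0, as were 7673 of the 15006 for all genes. The 7 were those of Slc7a11, Nfe2l2, Gclc, Txnrd1, Gclm, Srxn1 and Gsr, and their order from the lowest was as named. The median of the members was -0.31, and -0.38 once corrected, against -0.02 and -0.03 for all genes. Among all genes compared, 1.96% had a lower ratio than Slc7a11, 15.3% a lower one than Nfe2l2, 15.6% a lower one than Gclc and 23.2% a lower one than Txnrd1. After the correction these shares were 9.57%, 17.9%, 9.02% and 18.4%, and no member was at least 2-fold lower, against 4.83% of genes.

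Bleomycin in WT mice went with 1 difference of at least 2-fold. Srxn1 was higher in BLEO-WT than in PBS-WT, where 4.31% of genes compared were at least 2-fold higher (647 genes) and 9.84% at least 2-fold lower (1477 genes), or 475 and 2007 genes with scaling by total reads and 701 and 921 after the correction. Of the members, 7 had ratios above 0, as had 7489 of the 15006 genes compared. The median of the members was 0.27 against -0.001 for all genes, and 0.51 against 0.06 once corrected. Gsr and Gclc were lower, at -0.83 and -0.30. Slc7a11 reached 1.01 after the correction, from 0.32, in a comparison with 4.68% of genes at least 2-fold higher once corrected.

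In Hps1-/- mice, bleomycin went with 3 differences of at least 2-fold, in a comparison in which such differences were common. Slc7a11 and Gclc were lower in BLEO-HPS1 than in PBS-HPS1, where 24.6% of genes compared were at least 2-fold lower (3692 genes), and Nqo1 was higher, where 19.3% were at least 2-fold higher (2900 genes). With scaling by total reads the genes numbered 5175 and 1360, and with no filter 12258 and 5401. Once corrected, Gclc at -1.18 was the only member at least 2-fold lower, against 12.7% of genes, and Prdx1 at 1.57 and Nqo1 at 1.14 were higher, against 13.0%. The median of the members was -0.34, but 0.18 once corrected.

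The difference between the bleomycin responses of the genotypes was taken as the log2 ratio in Hps1-/- mice minus that in WT mice. It was -1.63 for Slc7a11, -0.98 for Gclc, -0.84 for both Txnrd1 and Nfe2l2, and -0.36 for both Gclm and Srxn1. It was above 0 for Gsr (0.28), Nqo1 (0.31), Prdx1 (0.42) and G6pdx (0.94). The response in Hps1-/- mice was thus lower for 6 members and higher for 4, and among all genes it was lower for 7469 of 15006. The median of the members was -0.36, against 0.004 for all genes. After the correction the median was -0.21, with 5 of 10 below 0. All 4 comparisons draw on the same 4 libraries, so their values for a gene are not independent of each other.

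The proteins that hold or assist NRF2 were read from a list of 12 regulators and partners, of which 11 passed the filter, with Nfe2l3 below it at 0.276 to 0.627 CPM. Between the bleomycin libraries, 1 of the 11 was at least 2-fold lower and none higher, against 9.48% and 7.08% of all genes. The median was -0.19, or -0.36 with 3 lower when scaled by total reads. The 1 lower gene was Bach1, the repressor that occupies antioxidant response elements. It stood at 160 CPM in PBS-WT and 131 in BLEO-WT, and 161 in PBS-HPS1 and 47.2 in BLEO-HPS1, which set BLEO-HPS1 apart from the other 3 libraries. Its log2 ratio between BLEO-HPS1 and BLEO-WT was -1.48 (interval -1.53 to -1.42) and ranged from -1.64 to -1.17 over the scalings, filters and the correction. Bach2, its relative in lymphocytes, ranged from 15.1 CPM in BLEO-HPS1 to 35.1 CPM in PBS-HPS1, with 28.8 CPM in BLEO-WT, and its log2 ratio between the Hps1-/- libraries was -1.22, or -0.63 once corrected.

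In BLEO-HPS1 against PBS-HPS1, 3 of the 11 were at least 2-fold higher (Keap1, Rbx1 and Dpp3) and 3 lower (Cul3, Bach1 and Bach2), with a median of -0.01, against 19.3% and 24.6% of all genes. The correction left 2 higher and 1 lower (median -0.36), against 13.0% and 12.7% of all genes. Scaling by total reads left 1 higher and 3 lower (median -0.44), against 1360 and 5175 of the 15006 genes. None differed by 2-fold between the WT libraries (median 0.24) or the PBS libraries (median -0.03). Of all genes, 4.31% were higher and 9.84% lower between the WT libraries, and 3.58% and 2.38% between the PBS libraries. Keap1, the sensor that binds NRF2, stood at 64.2 CPM in PBS-WT and 76.0 in BLEO-WT, and 49.5 in PBS-HPS1 and 111 in BLEO-HPS1. In Hps1-/- mice Keap1 was 2.25-fold higher after bleomycin (log2 ratio 1.17, interval 1.12 to 1.22), and 0.54 once corrected. The other parts of the ligase differed from each other. Its scaffold Cul3 was measured at 119, 75.6, 113 and 38.4 CPM in PBS-WT, BLEO-WT, PBS-HPS1 and BLEO-HPS1, and its RING subunit Rbx1 at 77.9, 87.5, 65.9 and 133 CPM. The log2 ratio of Cul3 in BLEO-HPS1 against PBS-HPS1 was -1.56, but 0.11 once corrected. That of Rbx1 was 1.01, or 1.57 once corrected and 0.58 with scaling by total reads.

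Of the proteins that displace NRF2 from KEAP1, Sqstm1 (p62) stood at 468, 626, 459 and 732 CPM in PBS-WT, BLEO-WT, PBS-HPS1 and BLEO-HPS1, and Dpp3 at 85.0, 119, 73.2 and 198 CPM. Both were highest in BLEO-HPS1 as counted, but the log2 ratio of Sqstm1 between the bleomycin libraries, 0.23, turned to -0.14 once corrected. Dpp3 was 2.71-fold higher in BLEO-HPS1 than in PBS-HPS1 (log2 ratio 1.44, interval 1.39 to 1.48). The small MAF partners Maff, Mafg and Mafk were each highest in BLEO-WT, at 187, 79.3 and 153 CPM, and were 164, 58.3 and 130 CPM in BLEO-HPS1. The related factor Nfe2l1 lay between 197 and 210 CPM in all 4 libraries.

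Ratios of reads within a library were then taken for members and their partners. They do not depend on scaling, but they do move with GC content and length where the genes of a pair differ in these. The pairs were chosen after the values of these genes had been seen. Per read of Nfe2l2 there were 0.389 reads of Keap1 in PBS-WT and 0.384 in BLEO-WT, and 0.297 in PBS-HPS1 and 0.996 in BLEO-HPS1 (interval 0.964 to 1.03 in the last). The first 3 libraries thus had well under 1 read of Keap1 per read of Nfe2l2, and BLEO-HPS1 had about as many of each. Between the Hps1-/- libraries that ratio changed by 1.75 on the log2 scale, but by 0.55 once both genes were corrected for GC content and length. Per read of Bach1 there were 1.03 reads of Nfe2l2 in PBS-WT and 1.51 in BLEO-WT, and 1.03 in PBS-HPS1 and 2.37 in BLEO-HPS1 (2.27 to 2.47), a log2 change of 1.20 between the Hps1-/- libraries and of 1.25 once corrected.

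Slc3a2, the heavy chain that carries xCT to the membrane and also serves other transporters, exceeded Slc7a11 by 23.8 reads to 1 in PBS-WT and 32.3 in BLEO-WT, and 22.9 in PBS-HPS1 and 103 in BLEO-HPS1 (interval 92.4 to 116). Between the Hps1-/- libraries this ratio changed by 2.17 on the log2 scale as counted and by -0.08 once corrected, so that its rise there rests on the processing. The reads of Gpx1, a glutathione peroxidase whose product Gsr recycles, per read of Gsr were 1.52, 3.86, 1.43 and 6.87 in PBS-WT, BLEO-WT, PBS-HPS1 and BLEO-HPS1. The latter ratio was highest in BLEO-HPS1, with a log2 change of 2.26 against PBS-HPS1 and of 1.56 once corrected. Txnrd1 per read of its substrate Txn1 stood at 0.540, 0.629, 0.805 and 0.461 in the same order of libraries, lowest in BLEO-HPS1 and highest in PBS-HPS1. Reads of Prdx1 per read of Srxn1 numbered 9.90, 6.31, 7.23 and 7.90, and reads of Pgd, the next NADPH-producing enzyme after G6pdx, per read of G6pdx numbered 2.22, 3.28, 2.33 and 3.03. Between the Hps1-/- libraries the ratio of Prdx1 to Srxn1 changed by 0.13 in log2 as counted and by 1.62 once corrected.

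**Figure D4:**
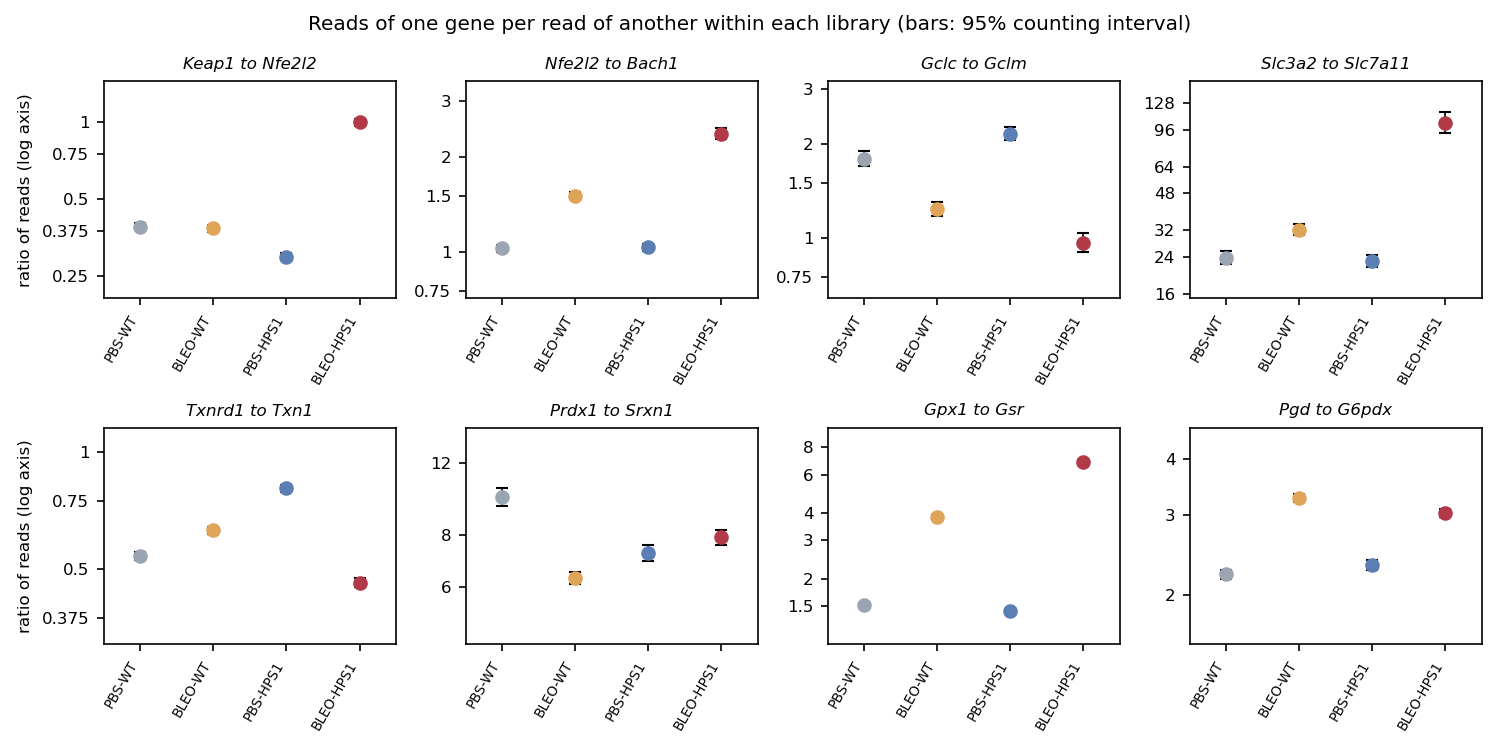
Reads of the first gene per read of the second within each library (y axis, log scale, a scale for each pair) for 8 pairs, with exact 95% counting intervals. Keap1 to Nfe2l2, Slc3a2 to Slc7a11, Nfe2l2 to Bach1 and Gpx1 to Gsr are highest in BLEO-HPS1 (0.996, 103, 2.37 and 6.87), and Gclc to Gclm is lowest there (0.964), all as counted; after correction for GC content and length the log2 change between the Hps1-/- libraries falls from 2.17 to -0.08 for Slc3a2 to Slc7a11 and from 1.75 to 0.55 for Keap1 to Nfe2l2.

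Other antioxidant genes, among them further genes of the NRF2 response, were grouped in 5 lists. The 36 other glutathione genes (synthesis, peroxidases, glutaredoxins and transferases) had 31 above the filter. Between BLEO-HPS1 and BLEO-WT, 7 of the 31 were at least 2-fold higher and none lower (7.08% and 9.48% of all genes), with a median log2 ratio of 0.68, against -0.31 for the 10 NRF2 genes and -0.02 for all genes. That median ranged from 0.47 to 0.68 over the scalings, filters and the correction, and the number of genes at least 2-fold higher from 4 to 8. Gstt1, a theta-class glutathione transferase, stood at 3.33 CPM in PBS-WT and 2.36 in BLEO-WT, and 3.53 in PBS-HPS1 and 11.8 in BLEO-HPS1 (log2 ratio between bleomycin libraries 2.31, interval 2.09 to 2.55). Gpx7, a peroxidase of the endoplasmic reticulum, stood at 1.65, 2.09, 1.65 and 10.3 CPM (log2 ratio 2.29, interval 2.07 to 2.56). Lowest were Mgst1, a membrane-bound glutathione transferase, at -0.52, and the mitochondrial glutaredoxin Glrx2, at -0.02 (0.55 once corrected).

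In the other comparisons of the glutathione list, 16 of 31 genes were at least 2-fold higher and none lower in BLEO-HPS1 than in PBS-HPS1 (median 1.04), against 19.3% and 24.6% of all genes. With scaling by total reads 9 were higher (median 0.61), against 1360 of the 15006 genes. After the correction 13 were higher and 1 lower, against 13.0% and 12.7% of all genes. In BLEO-WT against PBS-WT 1 was higher and 1 lower (median 0.33), against 4.31% and 9.84% of all genes. Once corrected these were 2 and 1, and with no filter 4 and 1. Between PBS libraries none differed by 2-fold (median -0.19), where 3.58% of all genes were higher and 2.38% lower. Beside these values, the fibroblast genes summed to 5148 CPM in BLEO-HPS1 and 1381 CPM in BLEO-WT, and the part of fibroblast RNA in them was not tested.

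The 19 other genes of the thioredoxin list (peroxiredoxins, sestrins, superoxide dismutases and methionine sulfoxide reductases) all passed the filter. Between the bleomycin libraries 1 was at least 2-fold higher and none lower, against 7.08% and 9.48% of all genes, and the median was 0.28. The higher gene was Sod3, the extracellular superoxide dismutase, at 17.8 CPM in PBS-WT and 29.0 in BLEO-WT, and 33.9 in PBS-HPS1 and 141 in BLEO-HPS1 (log2 ratio 2.29, interval 2.22 to 2.35). Prdx2, a cytosolic peroxiredoxin, followed at 0.86. The stress-induced sestrins Sesn3 and Sesn1 were lowest, at -0.61 and -0.58, and Sesn3 was at 0.01 once corrected. In BLEO-HPS1 against PBS-HPS1, 6 of the 19 were at least 2-fold higher and 1 lower (median 0.79), against 19.3% and 24.6% of all genes. The number higher ranged from 4 with scaling by total reads (median 0.36) to 10 with no filter. Of all genes, 1360 of 15006 and 5401 of 37499 were higher with these settings. In BLEO-WT against PBS-WT 1 was higher and none lower (median 0.26), against 4.31% and 9.84% of all genes, or none higher with scaling by total reads. None differed by 2-fold between the PBS libraries (median -0.22), where 3.58% of all genes were higher and 2.38% lower.

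Of the 8 other NADPH-producing genes, none differed by 2-fold between BLEO-HPS1 and BLEO-WT (median 0.47), where 7.08% of all genes were higher and 9.48% lower. The pentose phosphate enzymes Pgls and Tkt had the highest ratios, 0.80 and 0.77, and the mitochondrial folate enzyme Mthfd2 and the cytosolic isocitrate dehydrogenase Idh1 the lowest, 0.21 and -0.88. Tkt, transketolase, stood at 417, 510, 302 and 869 CPM in PBS-WT, BLEO-WT, PBS-HPS1 and BLEO-HPS1. Against PBS-HPS1, 4 of the 8 were at least 2-fold higher in BLEO-HPS1 (median 1.01), against 19.3% of all genes. Scaling by total reads left 2 (median 0.58), against 1360 of the 15006 genes, and the correction 3 (median 0.57), against 13.0%. No gene of this list differed by 2-fold between the WT libraries (median 0.20) or the PBS libraries (median -0.39). Between the WT libraries 4.31% of all genes were higher and 9.84% lower, and between the PBS libraries 3.58% and 2.38%.

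Of the 8 haem and ferritin genes of the NRF2 response, 1 was at least 2-fold lower in BLEO-HPS1 than in BLEO-WT and none higher. The shares of all genes were 9.48% and 7.08%, and the median of the list was 0.21, or -0.04 once corrected. The lower gene was Slc40a1, the iron exporter ferroportin, at 27.0 CPM in PBS-WT and 11.3 in BLEO-WT, and 10.2 in PBS-HPS1 and 4.31 in BLEO-HPS1. Its log2 ratio was -1.39 (interval -1.59 to -1.20), and -0.83 once corrected. Hmox1, haem oxygenase 1 and a target of NRF2 and BACH1, stood at 57.7, 99.7, 58.5 and 134 CPM in the same libraries, and its ratio between the bleomycin libraries was 0.43, or -0.01 once corrected. Blvrb, biliverdin reductase B, was at 0.75 and the ferritin heavy chain Fth1 at -0.01. In BLEO-HPS1 against PBS-HPS1, 4 of the 8 were higher and 1 lower by at least 2-fold (median 0.96), against 19.3% and 24.6% of all genes. Scaling by total reads left 2 higher, against 1360 of 15006 genes. The correction left 1 higher and none lower, against 13.0% and 12.7% of genes. In BLEO-WT against PBS-WT and in PBS-HPS1 against PBS-WT, 1 gene of the list, Slc40a1, was lower and none higher (medians 0.63 and -0.17). Of all genes, 9.84% and 2.38% were lower and 4.31% and 3.58% higher in these comparisons. The log2 ratio of Slc40a1 between the WT libraries was -1.26, or -0.88 once corrected, and with no filter 2 genes were higher there.

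Of the 24 genes of quinone, carbonyl and drug detoxification in the NRF2 response, 22 passed the filter. None of these differed by 2-fold between the bleomycin libraries (median 0.26), or 1 was higher once corrected. Of all genes, 7.08% were higher and 9.48% lower there, before the correction. Ces1d, a carboxylesterase, and Akr1b3, an aldose reductase, were highest at 0.77 and 0.71. Abcc5, an efflux pump, and Nqo2, the relative of Nqo1, were lowest at -0.79 and -0.43, and Nqo2 was at -0.02 once corrected. In BLEO-HPS1 against PBS-HPS1, 9 were at least 2-fold higher and 2 lower (median 0.81, or 0.37 with scaling by total reads), against 19.3% and 24.6% of all genes. In BLEO-WT against PBS-WT 4 were higher and 1 lower (median 0.19), against 4.31% and 9.84% of all genes. None differed by 2-fold between the PBS libraries (median -0.18), where 3.58% of all genes were higher and 2.38% lower. Between the bleomycin libraries the medians of all 5 lists thus lay above 0, against -0.31 for the 10 members, and that of the haem and ferritin list was below 0 once corrected. The haem and ferritin list and the detoxification list were also drawn up as genes of the NRF2 response. The glutathione, thioredoxin and NADPH lists were drawn up by pathway and not cleared of NRF2 targets. These medians therefore do not set NRF2 targets against other genes.

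**Figure D5:**
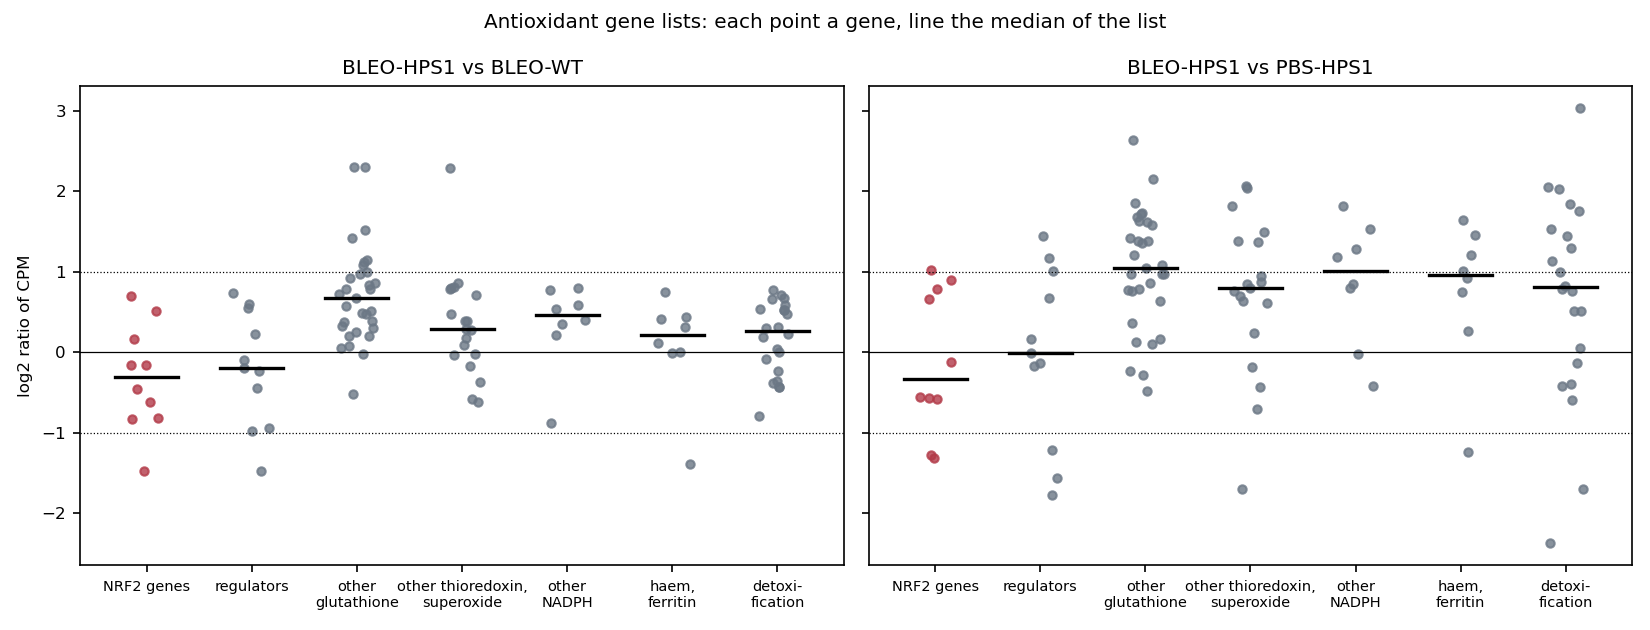
Each point is a gene, placed by its log2 ratio of CPM (y axis) in BLEO-HPS1 against BLEO-WT (left) and BLEO-HPS1 against PBS-HPS1 (right) and grouped by list (x axis), with black lines at the medians and dotted lines at 2-fold. The 10 NRF2 genes (red) have medians of -0.31 and -0.34, below those of the other antioxidant lists (for glutathione 0.68 and 1.04), before correction for GC content and length. The haem and ferritin list and the detoxification list were drawn up as genes of the NRF2 response, and the other lists were not cleared of such genes. The medians therefore do not set NRF2 targets against other genes.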

How the data were processed

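RNA of cells labelled ILC2 was sequenced in 4 libraries, 1 per group. The authors deposited a table of read counts per Ensembl gene, not normalized, for 49315 genes from SMARTER mRNA-Seq libraries. The aligner, counter, genome build and annotation are not given in the sources used here. Gene names, exon lengths and GC contents came from GENCODE M21 (GRCm38), which held 48970 of the identifiers, and promoter sequences from RefSeq.

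From these counts, genes with at least 1 CPM in at least 1 library were kept (15006). TMM factors (edgeR 4.0.16 in R 4.3.3) were 1.08 for PBS-WT, 0.951 for BLEO-WT, 1.15 for PBS-HPS1 and 0.849 for BLEO-HPS1. Log2 ratios used a prior count of 2, and a gene counted as higher or lower from 2-fold. Intervals are exact Clopper-Pearson at 95% and cover counting error only. Loess curves (span 0.3) on GC content and length gave the corrected ratios of 14981 genes. Calculations were tested on simulated data. Alternatives were DESeq2 1.42.0 size factors, total reads, no filter, a minimum of 10 counts per library, prior counts of 0.5 and 10, the correction, a 4-fold threshold and intervals wholly past 2-fold.

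The members and gene lists were chosen with earlier results of these data known. Named were all members, Hps1, the regulators above the filter and, in each other list, the 2 genes with the highest and the 2 with the lowest ratio of BLEO-HPS1 to BLEO-WT among those of at least 10 CPM in the higher library. Slc3a2, Gpx1, Txn1, Pgd, Il1rl1, Lyz2 and Nfe2l3 were named after their values were seen.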

Additional observations from a re-analysis of the deposited data

Results flagged for a closer look

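The bleomycin response had opposite signs in the 2 genotypes for 5 of the 10 NRF2 genes, and since there is 1 library per group the difference was not tested. How many of all genes had opposite signs was not counted, so this number is not read as particular to the NRF2 genes. The log2 ratio in Hps1-/- mice minus that in WT mice was -1.63 for Slc7a11 (0.32 in WT and -1.31 in Hps1-/-), and the 2 responses were 1.01 and 0.36 once corrected for GC content and length. It was -0.84 for Nfe2l2 (0.27 and -0.58), with corrected responses of 0.51 and -0.01. It was also -0.84 for Txnrd1 (0.27 and -0.57), with corrected responses of 0.29 and -0.33. For Gclm it was -0.36 (0.24 and -0.12), and the corrected responses were 0.50 and 0.63. For G6pdx it was 0.94 (-0.04 and 0.90), with corrected responses of -0.14 and 0.53. After the correction the signs were opposite for Txnrd1 and G6pdx and the same for Slc7a11 and Gclm, while Nfe2l2 was level with 0 in Hps1-/- mice. With no filter on low counts the response of G6pdx in WT mice was 0.04, which is the sign of its response in Hps1-/- mice.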

How the results depend on the processing

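With 1 library per group, no replicate could be left out. No paired analysis was possible because no group held 2 libraries. Of the 40 log2 ratios of members, 33 kept their sign over the 7 other scalings, prior counts, filters and the correction. Corrected for GC content and length, the ratio of Slc7a11 in BLEO-HPS1 against PBS-HPS1 reversed, to 0.36. The correction also left 0 members at least 2-fold lower between the bleomycin libraries, where 4.83% of genes were. It gave 2 higher and 1 lower in BLEO-HPS1 against PBS-HPS1, where 13.0% and 12.7% of genes were. It moved the median difference of the bleomycin responses from -0.36 to -0.21. Scaling by total reads moved the median of all genes to 0.06 between PBS libraries, -0.18 between bleomycin libraries, -0.18 in WT and -0.43 in Hps1-/- mice. With it, 0 members were higher and 1 lower (Gsr, -1.01) in BLEO-WT against PBS-WT, where 475 and 2007 of the 15006 genes were. In BLEO-HPS1 against PBS-HPS1, 0 were higher and 4 lower (Slc7a11, Gclc, Nfe2l2 and Txnrd1), where 1360 and 5175 of the 15006 genes were. The median difference was then -0.62. A prior count of 10 left 0 members higher in BLEO-HPS1 against PBS-HPS1, where 2844 of the 15006 genes were. No filter gave 2 there, as it did 5401 of 37499 genes, and a median difference of -0.24. At 4-fold, 0 members were called in any comparison. With the interval wholly past 2-fold, 0 members were higher in either bleomycin response, while the lower calls of Slc7a11 and Gclc stayed. Beyond the constructions named, the cause of these moves was not tested. Depth limited Nqo1 most, whose 98 to 223 reads gave the widest intervals.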
